A study of Arabidopsis thaliana with 4 samples.

Results

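RNA polymerase II (Pol II) occupancy in leaves of the Arabidopsis thaliana mutant hyl1-2 was described from 1 chromatin immunoprecipitation (ChIP) library set against the input library of the same genotype, 2 of the 4 libraries of the series. The plants were of the Col-0 background, carried a T-DNA insertion that knocks out HYL1, and were grown on soil in long days at the same temperature in both libraries. Leaves were crosslinked with formaldehyde, and the antibody ab817 was raised against total Pol II, whereas the input chromatin went through no antibody. Each nuclear locus of the annotation was measured by the reads of mapping quality above 0 whose deposited interval touched it, as the RPM (its count scaled by the size of the library) in the ChIP over the RPM in the input. Of 37899 annotated nuclear loci, 36659 had at least 20 reads in both libraries and were examined, and the 1240 others included 614 pseudogenes, 381 protein-coding genes and 128 tRNA genes. The depth was 26712389 reads in the ChIP and 19502710 reads in the input. There was no replicate, so no test was made, and a locus was called high at a ratio of 2 or more and low at a ratio of 0.5 or less. The 95% intervals given after ratios are exact binomial intervals that cover counting error only, since reads are PCR products without molecular identifiers, and those after medians are order-statistic intervals over loci.

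Pol II transcribes all protein-coding genes, the MIR genes that give rise to miRNA precursors, most of the small nuclear RNA genes of the spliceosome and many long non-coding RNAs, whereas tRNA genes are the work of Pol III. The enzyme starts at a promoter, runs through the gene and continues past the polyadenylation site before it is released. Crosslinked Pol II thus marks where the enzyme sits rather than how much mRNA has accumulated. The study cautions that Pol II found at a locus need not mean that the locus is expressed. HYL1 is a double-stranded RNA-binding protein and a partner of the nuclease DCL1 in cutting miRNA precursors, and its loss lowers the level of many miRNAs. A whole leaf holds mesophyll, epidermis, guard cells and veins. In such bulk material, Pol II on a gene in fewer cells and less Pol II per cell cannot be told apart.

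With scaling by library size, a small share of protein-coding genes was high. Of 27063 protein-coding genes examined, 1517 had a ratio of 2 or more (5.61%) and 169 a ratio of 0.5 or less (0.624%). The count depends on the scaling, since 13321 (49.2%) reached 2-fold when the median intergenic window was put at a ratio of 1. The 1517 genes took 9.72% of the ChIP reads and 2.90% of the input reads. A ratio of 4 or more was found at 385 genes, of 6 or more at 113 and of 8 or more at 8. The median over protein-coding genes was 0.01 on the log2 scale, that is, near the average of the library, because annotated genes together took 78.7% of the ChIP reads and 68.6% of the input reads. The counting interval lay wholly above 1 at 30.1% of protein-coding genes and at 33.5% of all loci. At the threshold itself stood the phloem sucrose transporter gene SUC2 with 1356 reads in the ChIP and 495 in the input (2.00-fold), GATL7 and AT1G12440 just inside, and HOG1 with 1383 and 505 reads (1.9995-fold), AT2G20921 and AT3G07273 just outside.

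The 20 highest protein-coding genes among those with at least 100 input reads included transcription regulators, a lipoxygenase of jasmonate synthesis, cell wall genes, polyubiquitin genes and genes of uncharacterized proteins. The highest was AT1G32920, which encodes an uncharacterized protein (chr1:11928757-11929993, plus strand, TAIR10 coordinates), with 2242 reads in the ChIP and 166 in the input, a ratio of 9.86 (8.42 to 11.6). ERF4, a transcriptional repressor of the ethylene response factor family (chr3:5121303-5122562, plus strand), had 2495 and 200 reads and a ratio of 9.11 (7.88 to 10.6). CAF1a, a deadenylase that shortens the poly(A) tails of mRNAs, had 2213 reads in the ChIP and 204 in the input (7.92-fold, 6.86 to 9.19).

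Further regulators stood in the same range. MYBR1, an R2R3 MYB factor of stress responses, had 4124 reads in the ChIP and 367 in the input (8.20-fold), but 791 bp of it overlap CYP81G1 on the other strand (7.66-fold), and ChIP reads carry no strand of transcription, so the pair cannot be told apart there. RRTF1, a redox-responsive factor of the AP2/ERF family, had 2746 and 264 reads (7.59-fold) and shares sequence with AT4G34412 (5.0005-fold) and the non-coding AT4G08985 (8.52-fold). HSPRO2, the ortholog of a nematode resistance gene of sugar beet, had 3601 and 333 reads (7.90-fold).

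Genes of metabolism and of the cell wall were as high. LOX3, a lipoxygenase of jasmonate synthesis, had 7877 reads in the ChIP and 747 in the input, a ratio of 7.70 (7.14 to 8.31). The hexose transporter gene STP1 had 6459 and 605 reads (7.79-fold, with 438 bp in AT1G11270). LRX3, a leucine-rich repeat extensin of the cell wall, had 5200 and 438 reads (8.67-fold), GAE1, an epimerase that makes a pectin precursor, 3495 and 323 reads (7.90-fold), and PHI-1, a gene of the carbon starvation response, 2462 and 224 reads (8.02-fold). Of the 20, 13 overlap no annotated gene. All 20 stayed at or above 2-fold under every alternative processing that was run, except that the 7 overlapping genes had no value where such genes were left out, with log2 ratios between 2.18 and 4.62. The 10 lowest genes depended more on the processing, since 1 of them was at or below 0.5-fold after correction for GC content and 4 when the median intergenic window was put at a ratio of 1.

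The ratios of these genes were close to the ceiling of the deposited files. Duplicates had been removed, so each library held at most 1 read per position and strand, and the ChIP reads of the 20 genes occupied 65.1% to 94.4% of the positions and strands from which a read could touch the gene (median 83.8%), while the input reads occupied 5.79% to 8.85%. At LOX3 the shares were 89.6% in the ChIP and 8.54% in the input, and at MYBR1 94.4% and 8.50%. A correction for positions already taken put the log2 ratios of the 20 genes between 3.68 and 4.62, against 2.90 and 3.30 without it. The values given for the highest genes are therefore compressed, and their order among themselves cannot be read from the uncorrected ratios. The lowest genes were far from the ceiling, with AGL33 at 2.37% in the ChIP and 7.92% in the input.

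**Figure D1:**
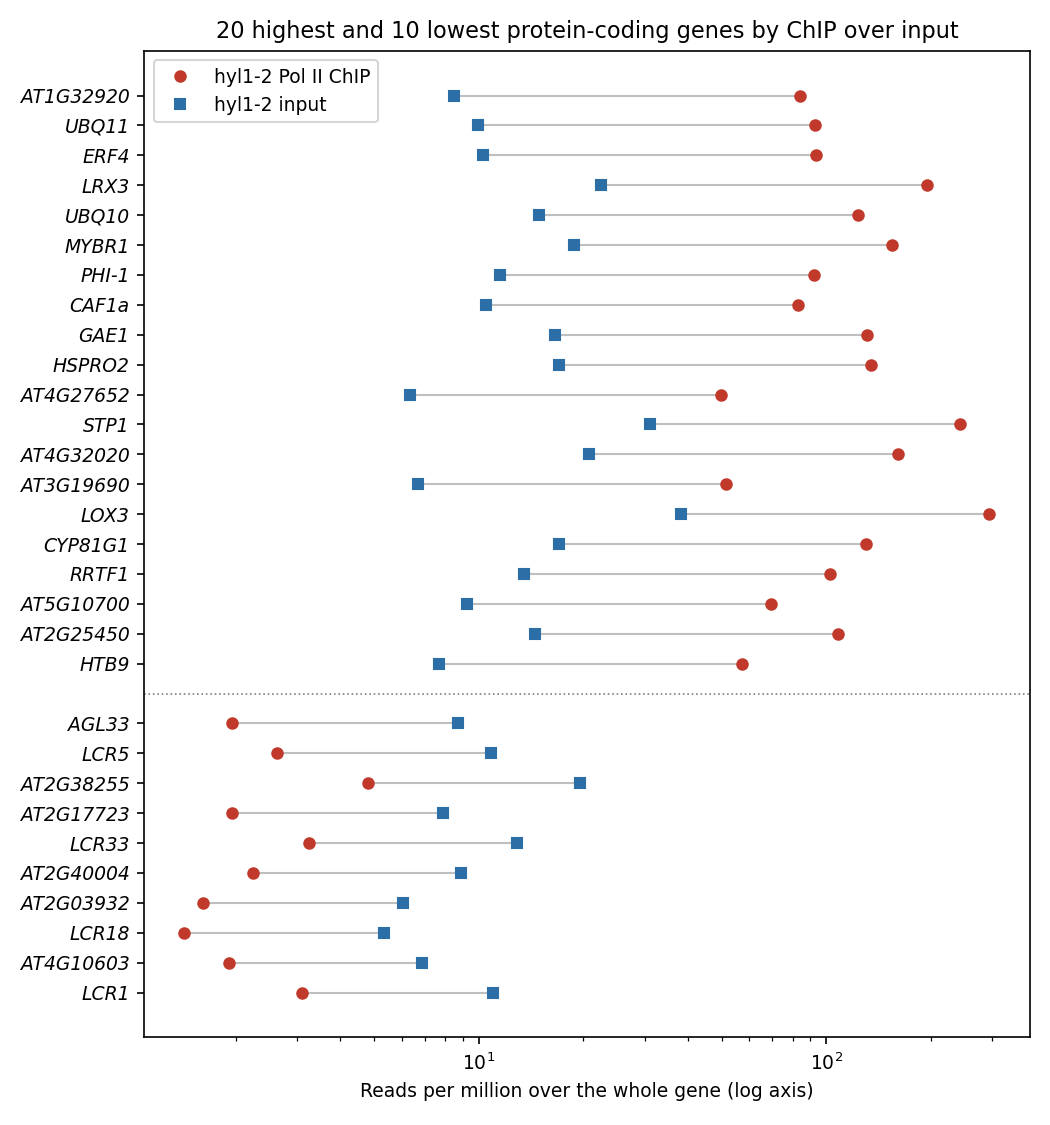
RPM over the whole gene in the hyl1-2 Pol II ChIP (circles) and in the hyl1-2 input (squares) for the 20 highest (above the dotted line) and 10 lowest (below it) protein-coding genes with at least 100 input reads, on a log axis. The ratio of the 2 points lies between 9.86 for AT1G32920 and 7.46 for HTB9 in the upper set, and between 0.223 for AGL33 and 0.282 for LCR1 in the lower set.

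Polyubiquitin genes encode head-to-tail copies of ubiquitin, the protein tag for degradation, and are near-identical in sequence. UBQ11 had 2471 reads in the ChIP and 194 in the input (9.30-fold, 8.03 to 10.8), and UBQ10 had 3294 and 290 (8.29-fold, 7.35 to 9.38). Reads of mapping quality 0, which fit more than 1 place, were 17.8% of the ChIP reads and 30.2% of the input reads at UBQ11, and 23.6% and 36.0% at UBQ10. With these reads included the ratios were 8.12 and 7.15, so both remained above 2-fold. Among 37 polyubiquitin, actin and tubulin genes the median was 0.51 on the log2 scale, and the lowest was UBQ6 at 0.785-fold. At or above 2-fold were 9 (24.3%, against 5.61% of protein-coding genes).

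Histone genes ranged widely. HTB9, which encodes a histone H2B, had 1532 reads in the ChIP and 150 in the input (7.46-fold) and 6.58-fold with reads of mapping quality 0 included, and touches the expansin-like gene EXLA1 by 22 bp (6.66-fold). The histone H3 genes AT4G40040 and AT5G10980 followed at 2.82-fold and 2.48-fold. Over 47 genes with histone in their product name the median was 0.43, with HTA12 lowest at 0.664-fold. At or above 2-fold were 7 (14.9%, against 5.61% of protein-coding genes).

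Jasmonate signalling formed the highest of the gene lists. Jasmonate is a wound and defence hormone, and JAZ proteins are the repressors that are destroyed when the hormone binds its receptor, while the genes that encode them are themselves switched on by the hormone. The list holds 10 JAZ genes found by name in the annotation and may lack members of the family. Of these 10, 7 were at or above 2-fold, against 5.61% of protein-coding genes, and the median log2 ratio was 2.06 (−0.20 to 2.62). JAZ1 had 2991 reads in the ChIP and 346 in the input (6.31-fold), JAZ6 had 4185 and 496 (6.16-fold), and JAZ7 had 1614 and 193 (6.11-fold). JAZ5 followed at 5.24-fold, JAZ10 at 4.31-fold, JAZ8 at 4.05-fold and JAZ3 at 2.14-fold. JAZ12 stood at 1.76-fold, and JAZ4 and JAZ11 were below 1, at 0.868-fold and 0.812-fold.

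CYP94C1, CYP94B3 and OPR3, chosen after their values were seen, belong to jasmonate synthesis and turnover. The cytochrome P450 genes CYP94C1, with 3326 reads in the ChIP and 351 in the input (6.92-fold), and CYP94B3, with 3365 and 415 (5.92-fold), encode enzymes that oxidise and so inactivate the active jasmonate. OPR3, a reductase of jasmonate synthesis, stood at 6.55-fold. Of the 218 cytochrome P450 genes as a whole, 15 were at or above 2-fold (6.88%, near the 5.61% of protein-coding genes) and the median was 0.16.

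Stress-related transcription factor families were split between a few high genes and many near the average. Of 101 genes in the AP2/ERF list, which was drawn by name in the annotation and leaves out RRTF1, 21 were at or above 2-fold. This was 20.8%, against 5.61% of protein-coding genes, and the median was 0.06. Within the list, ERF4 was followed by AT1G22190 with 2862 reads in the ChIP and 302 in the input (6.92-fold). ERF2 came next with 1996 and 245 (5.95-fold), and AT4G16750 was lowest at 0.507-fold. Of 67 WRKY genes, 11 were at or above 2-fold (16.4%) around a median of −0.02. WRKY40 and WRKY18, which act together as repressors in immunity, had 2540 and 3559 reads in the ChIP against 300 and 466 in the input (6.18-fold and 5.58-fold), WRKY11 stood at 4.02-fold, and WRKY51 was lowest at 0.509-fold.

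Genes of salicylic acid immunity showed the same split. NPR3, a receptor of the hormone, had 2655 reads in the ChIP and 569 in the input (3.41-fold), BGL2, a glucanase of the pathogenesis response, 1391 and 325 (3.12-fold), and CBP60G, an activator of salicylic acid synthesis, 2266 and 566 (2.92-fold). EDS16, which makes the precursor of the hormone, was at 0.795-fold. In all 5 of 19 genes were at or above 2-fold (26.3%, against 5.61% of protein-coding genes) and the median was −0.03. Among intracellular immune receptors of the NLR family, 11 of 137 were at or above 2-fold (8.03%, against 5.61% of protein-coding genes), and 5 after correction for GC content, led by AT5G41740 with 3035 and 594 reads (3.73-fold). RPP5 stood at 3.37-fold, but 49.3% of its ChIP reads and 70.6% of its input reads had mapping quality 0, and with them the ratio was 2.01.

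Photosynthesis genes carried Pol II above the average gene. Light-harvesting proteins bind chlorophyll around both photosystems and are encoded by nuclear multigene families. Over 49 photosystem and light-harvesting genes the median log2 ratio was 0.75 (0.49 to 0.95), and 43 had a ratio above 1. At or above 2-fold were 16 (32.7%, against 5.61% of protein-coding genes). After correction for GC content 4 of the 49 were at or above 2-fold, and the median was 0.25, against −0.30 over protein-coding genes. CAB1, a chlorophyll-binding protein of photosystem II, had 959 reads in the ChIP and 138 in the input (5.07-fold). LHB1B2 had 684 and 127 (3.93-fold), and PSBX, a small subunit of photosystem II, 816 and 166 (3.59-fold). The lowest were PPD5 at 0.737-fold and the assembly factor PSB28 at 0.695-fold. At CAB1, 46.3% of the ChIP reads and 44.6% of the input reads had mapping quality 0, and the ratio with them was 5.38.

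Carbon fixation followed with fewer high genes. Of 20 Calvin cycle genes, 3 were at or above 2-fold (15%, against 5.61% of protein-coding genes) and the median was 0.35. CP12-2, a small protein that links and switches off enzymes of the cycle in the dark, had 1190 reads in the ChIP and 135 in the input (6.44-fold), CP12-1 had 797 and 191 (3.05-fold), and RBCS1A, a Rubisco small subunit, 1163 and 298 (2.85-fold). SBPASE was lowest at 0.793-fold. Photorespiration was near the average, with a median of −0.01 over 11 genes and only the aminotransferase gene AGT at or above 2-fold (2.18-fold).

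The circadian clock is a loop in which morning-phased factors repress evening genes and evening factors repress morning genes. Evening genes carried more Pol II signal than morning genes in this harvest, whose time of day is not given in the sources used here. PRR5, a pseudo-response regulator, had 3691 reads in the ChIP and 480 in the input (5.61-fold). PCL1 and ELF4, members of the evening complex, had 2673 and 565 reads in the ChIP against 752 and 172 in the input (2.60-fold and 2.40-fold), and TOC1 had 2140 and 730 (2.14-fold). BOA, GI and ELF3 lay between 1.34-fold and 1.15-fold, and PRR3 was at 0.925-fold. The median of the 8 evening genes was 0.76 (−0.11 to 2.49). At or above 2-fold were 4 (50%, against 5.61% of protein-coding genes), and 2 after correction for GC content.

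All 9 morning genes were below 1, with a median of −0.20 (−0.26 to −0.08) and ratios between 0.780 and 0.955. CCA1 had 873 reads in the ChIP and 675 in the input (0.944-fold), and LHY had 1062 and 920 (0.843-fold). PRR9 and PRR7 stood at 0.844-fold and 0.884-fold. PRR3 was the only evening gene inside the morning range, and the other evening genes lay above every morning gene.

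**Figure D2:**
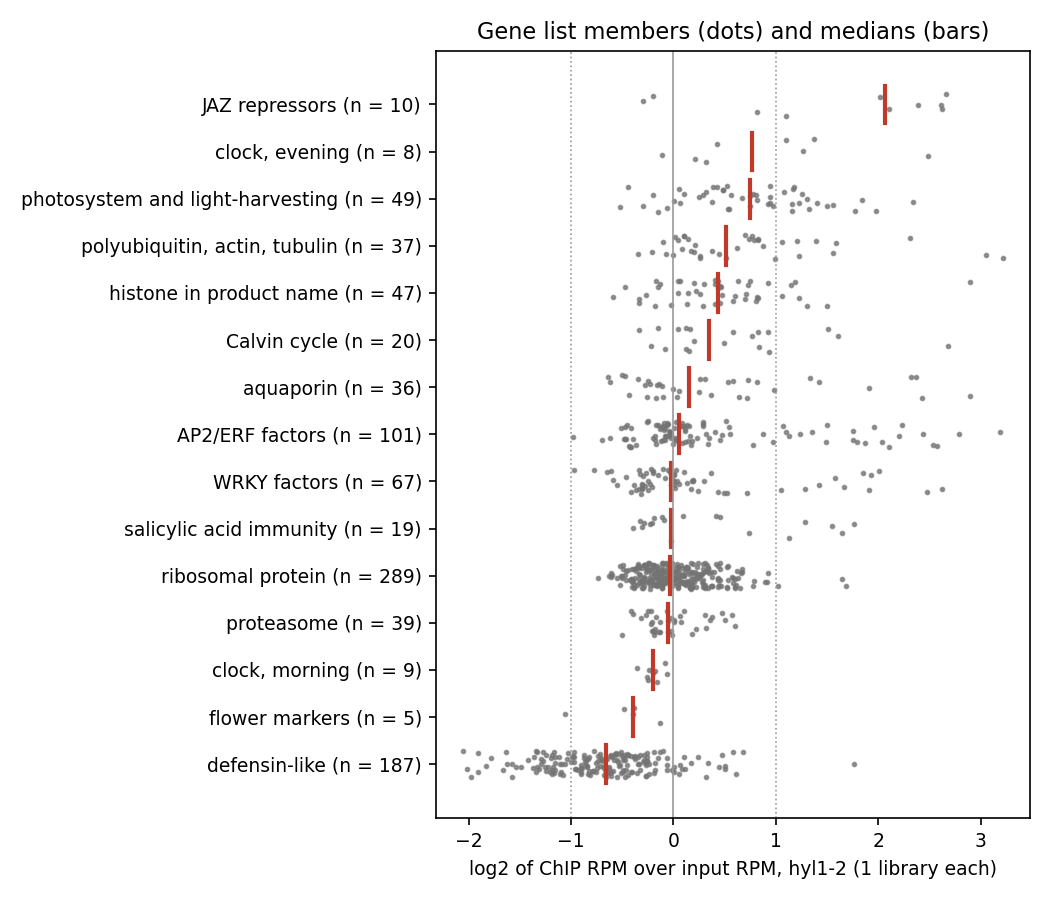
Log2 of ChIP RPM over input RPM in hyl1-2 for each examined member (dots) of 15 gene lists, sorted by the list median (red bars), with dotted lines at ratios of 2 and 0.5. The medians run from 2.06 for the JAZ repressors to −0.66 for defensin-like genes, and single genes of the AP2/ERF, WRKY and aquaporin lists lie as high as the JAZ genes.

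Housekeeping complexes were near the average of the library. Ribosomal protein genes had a median of −0.03 over 289 genes with 3 at or above 2-fold (1.04%, against 5.61% of protein-coding genes). Proteasome genes had a median of −0.06 over 39 genes with 0 at or above 2-fold and RPN5B highest at 1.51-fold. Elongation factor genes had 1 of 19 at or above 2-fold (5.26%). It was AT5G60390, a copy of the translation factor EF1A, with 2085 reads in the ChIP and 348 in the input (4.37-fold). Aquaporins, the water channels of cell membranes, varied more, with 7 of 36 at or above 2-fold (19.4%) around a median of 0.15. TIP2 and DELTA-TIP of the vacuole membrane had 2838 and 2436 reads in the ChIP against 279 and 330 in the input (7.43-fold and 5.39-fold), and PIP2A of the plasma membrane had 3060 and 433 (5.16-fold). Among 61 expansin and xyloglucan-modifying genes, which loosen the cell wall, EXLA1 (6.66-fold), XTH24 (4.88-fold) and XTH25 (4.08-fold) were the only ones at or above 2-fold (4.92%).

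Large families were close to the average of all protein-coding genes. F-box genes, whose products choose proteins for ubiquitination, counted 18 of 639 at or above 2-fold (2.82%, against 5.61% of protein-coding genes) around a median of 0.12. They were led by AT2G17830 with 1637 reads in the ChIP and 220 in the input (5.43-fold). Pentatricopeptide repeat genes of organelle RNA processing counted 5 of 257 (1.95%) around 0.05, and auxin-induced SAUR genes 1 of 78 (1.28%) around 0.02. Heat shock protein genes counted 5 of 70 (7.14%) around 0.06, among them the chaperone gene BIP3 of the endoplasmic reticulum (3.40-fold). Cysteine-rich receptor-like kinases counted 3 of 36 (8.33%) around 0.21, with CRK4 highest at 3.40-fold.

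Genes of small secreted cysteine-rich proteins were frequent among the lowest. Of the 169 protein-coding genes at or below 0.5-fold, 51 (30.2%) were in the defensin-like list, which holds 0.691% of all protein-coding genes examined. The median of its 187 genes was −0.66 (−0.76 to −0.57), and LCR69 was the only one at or above 2-fold, at 3.39-fold. LCR5 had 70 reads in the ChIP and 212 in the input (0.241-fold, 0.181 to 0.317), and LCR33 had 87 and 251 (0.253-fold). The lowest of all was AGL33, a MADS-box gene, with 52 and 170 reads (0.223-fold, 0.160 to 0.306). Genes at or below 0.5-fold were short and rich in A and T, with a median length of 673 bp and a median GC content of 30.5%, against 2089 bp and 38.8% over all protein-coding genes, and after correction for GC content the defensin-like median was −0.04 and LCR33 was above 1.

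AT2G40004, also among the 10 lowest, lies 1726 bp from HSPRO2, one of the 20 highest. It had 60 reads in the ChIP and 173 in the input (0.253-fold). The non-coding locus AT2G09105 inside it had 3 reads in the ChIP and 49 in the input, a ratio of 0.0447 (0.00891 to 0.139).

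The lists of meristem and flower regulators held no high gene with the counting used throughout. Of 22 KNOX and WOX homeobox genes, which act in meristems, 0 were at or above 2-fold. This allows a share of up to 14.9% (Wilson), against 5.61% of protein-coding genes. Their median was −0.18, and −0.17 after correction for GC content, against −0.30 over protein-coding genes after it. Of 96 AGAMOUS-like MADS genes, 0 were at or above 2-fold (5 of 95 with reads placed at fragment centres). At or below 0.5-fold were 4 (4.17%, against 0.624% of protein-coding genes), among them AGL14 at 0.393-fold, and 0 after correction for GC content. The floral organ identity genes were all below 1, with AG at 0.481-fold (708 reads in the ChIP and 1075 in the input) and PI highest at 0.911-fold. The medians of the marker lists were 0.57 for mesophyll, 0.39 for phloem companion cells, 0.36 for epidermis, 0.31 for xylem and 0.15 for guard cells, and −0.03 for root, −0.18 for the shoot meristem and −0.26 for trichomes, each over 3 to 8 genes. All 5 mesophyll genes were above 1, and RBCS1A was the only one at or above 2-fold. Pollen and seed markers, which leaves should lack, had medians of 0.29 and 0.18 with 0 at or above 2-fold and 3 of 4 and 4 of 7 genes above 1, so that a ratio between 1 and 2 was not reserved to genes of leaf cells. After correction for GC content the order of the lists was lost, with medians of −0.26 for mesophyll, −0.25 for pollen, −0.13 for trichomes and 0.09 for flower, so the tissue label could not be checked from these markers.

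HYL1 itself was high. The gene (chr1:3137649-3140353, minus strand) had 2220 reads in the ChIP and 416 in the input, a ratio of 3.90 (3.51 to 4.34), and 3.79 with reads of mapping quality 0. A stretch of 20 bases within it was spanned by no read of either library, which serves as the check of the genotype label. It is shown in capitals on the coding strand within the reference sequence of RefSeq (TAIR10.1, chr1:3139467-3139546, minus strand).
HYL1: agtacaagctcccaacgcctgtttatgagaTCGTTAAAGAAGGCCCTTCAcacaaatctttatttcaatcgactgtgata

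Pol II signal lay on both sides of that stretch. On the promoter side, the gene had 1067 reads in the ChIP and 172 in the input (4.53-fold, 3.85 to 5.35). In the first 1000 bp on the other side it had 1186 and 183 (4.73-fold, 4.05 to 5.56), and in the remaining part of the gene 207 and 92 (1.64-fold, 1.28 to 2.12). The ratio was 1.16 over the 1000 bp past the end. Signal thus stood at a similar height on both sides of that stretch and was lower near the end of the gene. The parts are not separate counts. The deposited intervals carry 125 bp added toward higher coordinates, so reads beyond the stretch can also be counted on its promoter side. Whether the stretch is the exact site of the T-DNA was not tested.

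Over 21 genes of miRNA biogenesis and action the median was −0.07, and HYL1 was the only one at or above 2-fold. This share of 4.76% was near the 5.61% of all protein-coding genes. RCF3 came next at 1.23-fold with 1812 reads in the ChIP and 1073 in the input, then CDC5 at 1.17-fold, and the cap-binding protein gene ABH1 was lowest at 0.845-fold. Transcription factor genes that miRNAs target were also near the average, with medians between −0.25 for the NAC genes of miR164 and 0.22 for the TCP genes of miR319. RAP2.7, an AP2-like target of miR172, was the only one examined at or above 2-fold, with 1758 and 535 reads (2.40-fold). After correction for GC content 0 of the 6 AP2-like genes were. Of 11 SPL targets of miR156, 2 were under the read minimum. With reads of mapping quality 0 included, 2 of the 11 were at or above 2-fold and their median was 0.17. The 5 HD-ZIP III targets of miR166 lay between 0.925-fold and 1.08-fold.

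MIR loci spanned a wide range around the average. Of 297 examined, 21 were at or above 2-fold (7.07%, against 8.13% of all loci), 14 were at or below 0.5-fold (against 1.32%), and the median was −0.05 (−0.12 to 0.01). The highest, MIR5651, had 540 reads in the ChIP and 56 in the input (7.04-fold) and overlaps the ubiquitin ligase gene RDUF1 (5.67-fold). MIR2936 (3.73-fold) lies wholly within SAG21 (4.08-fold). Signal of a host or neighbour and signal of the precursor cannot be told apart at such loci.

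The 10 MIR genes that the study examines singly overlap no protein-coding gene and fell into 5 at or above 2-fold and 5 near or below 1. Their annotated loci have a median length of 165 bp, below the 200-bp ChIP interval. Reads that lie mostly outside a locus are therefore counted in it. With reads placed at fragment centres, 8 reached the read minimum and 4 of them were at or above 2-fold. After correction for GC content 3 of the 10 were at or above 2-fold, with MIR166a at 0.60 and MIR163 at 0.33 on the log2 scale. MIR170 had 267 reads in the ChIP and 43 in the input (4.53-fold, 3.28 to 6.41), MIR166a had 253 and 64 (2.89-fold, 2.19 to 3.86) and MIR775 had 235 and 60 (2.86-fold, 2.15 to 3.86). MIR159a had 226 and 61 (2.71-fold) and MIR163 had 252 and 87 (2.11-fold). The other 5 were MIR393a at 1.09-fold (55 and 37 reads), MIR161 at 0.872-fold, MIR157a at 0.860-fold, MIR393b at 0.821-fold and MIR157c at 0.652-fold (0.471 to 0.901). The intervals of MIR393a, MIR161, MIR157a and MIR393b held 1.

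For each of the 5 high loci 1 mature miRNA is shown, because it names what the precursor yields, and the 5p products also annotated for MIR170 and MIR166a are left out. The sequences are from the RefSeq annotation of TAIR10.1 in DNA letters with the seed, bases 2 to 8, in capitals. None of the 5 shown shares its seed with another. In plants, miR170 acts on SCARECROW-like factors, miR166 on HD-ZIP III factors, miR159 on GAMYB-like factors and miR163 on methyltransferase genes.
MIR170-3p: tGATTGAGccgtgtcaatatc
MIR166a-3p: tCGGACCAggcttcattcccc
MIR775: tTCGATGTctagcagtgcca
MIR159a: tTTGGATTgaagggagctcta
MIR163: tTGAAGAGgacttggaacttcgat

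Among the non-coding classes, spliceosomal RNA genes had the highest share of high loci. Of 77 snRNA genes, 26 were at or above 2-fold (33.8%, against 8.13% of all loci), with a median of 0.44. The U1, U2, U4 and U5 genes, all transcribed by Pol II, had medians of 1.15, 0.67, 0.64 and 0.43 and counted 7 of 12, 9 of 22, 5 of 12 and 4 of 12 genes at or above 2-fold. U6, a Pol III gene family, had a median of 0.02 and 0 of 17 genes at or above 2-fold, which allows a share of up to 18.4% (Wilson). Among those with at least 50 input reads, the highest were U5.6 with 310 reads in the ChIP and 50 in the input (4.53-fold) and U12 with 393 and 65 (4.41-fold). These genes are shorter than a deposited interval and belong to near-identical families, so values of single copies are uncertain.

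Small nucleolar RNA genes, which guide the modification of ribosomal RNA, had a median of 0.24 over 275 loci with 35 at or above 2-fold (12.7%, against 8.13% of all loci). The 3 highest with at least 50 input reads, AT1G05423 (6.31-fold), AT1G05417 (5.90-fold) and AT1G05427 (5.26-fold), lie side by side within the non-coding gene AT1G18745 (5.03-fold) and share most of their reads. Of 497 tRNA genes examined, 54 were at or above 2-fold (10.9%, near the 8.13% of all loci) around a median of −0.07, and 13 after correction for GC content. Among those with at least 50 input reads AT4G34035 was highest at 2.104-fold and the next was at 1.12-fold, so that all other tRNA calls came from loci with fewer than 50 input reads. Long non-coding RNA loci had a median of −0.11 over 3450 loci, at 0.09 where they overlapped a protein-coding gene and −0.25 where they did not. The 3 highest with at least 50 input reads, AT3G07315 (9.10-fold), AT5G01255 (8.69-fold) and AT4G08985 (8.52-fold), lie on HTB9, NHL3 and RRTF1.

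Pseudogenes, a class that in this annotation includes transposable element genes, also had a high share at or above 2-fold with reads of mapping quality above 0. Of 4229 examined, 1110 were at or above 2-fold (26.2%, against 8.13% of all loci) and the median was 0.51 (0.49 to 0.53). The 926 annotated as transcribed had the lower median, 0.15 over the 857 examined, against 0.63 over the 3372 others examined. The highest with at least 50 input reads lie beside strong genes, AT4G05049 (8.37-fold) 195 bp from UBQ11 and AT2G06045 (7.97-fold) at the edge of OPR3.

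The count of pseudogenes rested on the treatment of reads that map to several places. With reads of mapping quality 0 included, 41 of 4842 pseudogenes (0.847%) were at or above 2-fold, against 4.76% of all loci, and the median was 0.32. Among the 2074 pseudogenes where at least 25% of input reads had mapping quality 0, the median was 1.03 and 52.0% were at or above 2-fold, but 0.36 and 0.241% with all reads. Mapping quality 0 was given to 38.8% of the ChIP reads and 65.0% of the input reads at the median locus of that set. The aligned reads were 75 bp long in the ChIP and 50 bp in the input, and the part of this difference in the result was not tested. Among the 1358 pseudogenes with under 5% of such input reads, the median was 0.20 and 1.62% were at or above 2-fold.

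**Figure D3:**
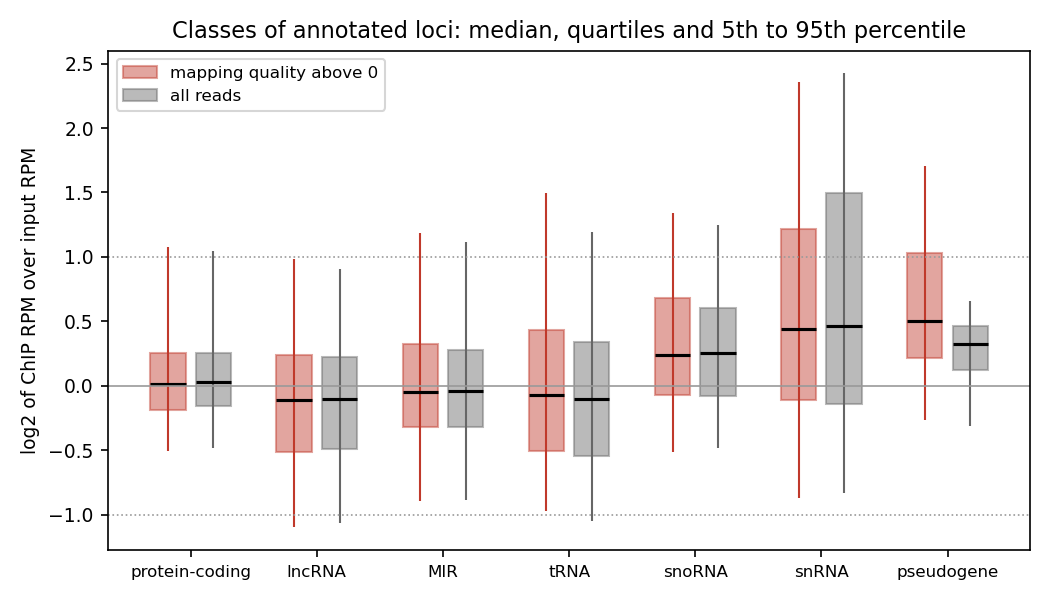
Log2 of ChIP RPM over input RPM in hyl1-2 for 7 classes of loci, with reads of mapping quality above 0 (left box of each pair) and with all reads (right box). Black lines are medians, boxes quartiles and whiskers the 5th to 95th percentiles. The median of pseudogenes is 0.51 with reads of mapping quality above 0 and 0.32 with all reads, and the whisker of the second box ends below a ratio of 2.

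GC content moved with the ratio at protein-coding genes and at pseudogenes. Over protein-coding genes Spearman's rho between GC content and the log2 ratio was 0.45 across 27063 genes, which share their 2 libraries and are not independent replicates. The median log2 ratio was −0.60 at genes of 28 to 32% GC and 0.30 at genes of 44 to 48%, and −0.28 and 0.90 at pseudogenes of the same ranges. Intergenic windows of 500 bp showed a steeper slope, with medians of −1.15 at 28 to 30% GC and 0.93 at 46 to 48%. This slope was taken from reads of mapping quality above 0, and the part of the reads left out was not tested. Subtracting the intergenic slope turned the rho over genes to −0.31, that is, past 0 to the other sign, and left 1066 protein-coding genes at or above 2-fold, of which 921 were among the 1517. The part of GC content in the values of single genes was not tested otherwise.

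**Figure D4:**
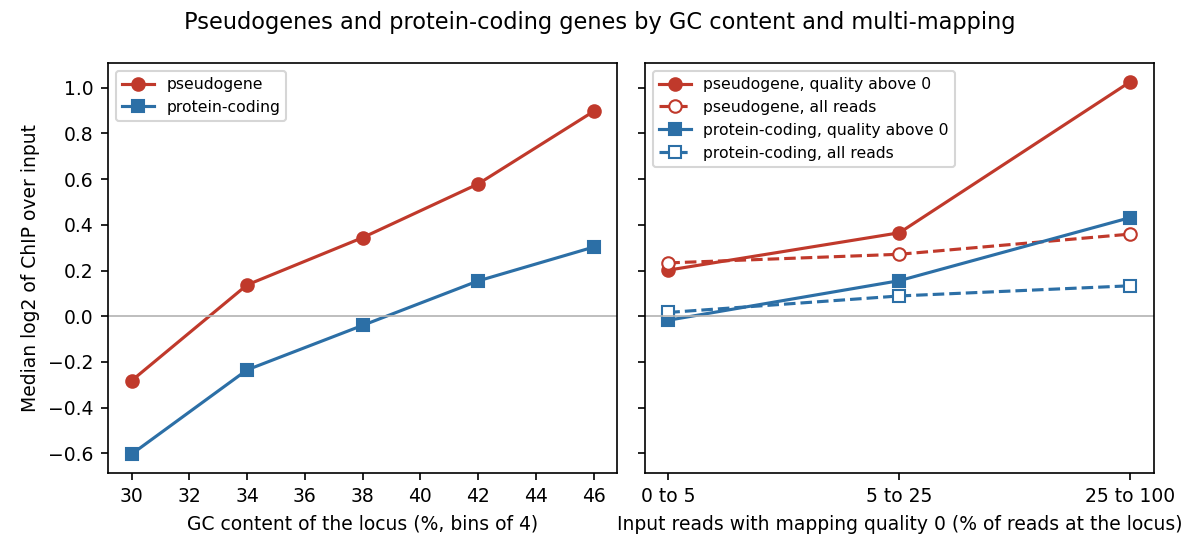
Median log2 of ChIP over input in hyl1-2 for pseudogenes (circles) and protein-coding genes (squares), by GC content of the locus (left) and by the percentage of its input reads with mapping quality 0 (right; filled, mapping quality above 0; open, all reads). At 25 to 100% the pseudogene median is 1.03 with reads of mapping quality above 0 and 0.36 with all reads.

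The high genes differed in structure from the rest. Genes at or above 2-fold had a median of 3 exons and 29.6% had a single exon, against 4 exons and 18.6% over all protein-coding genes examined, and 36.1% of genes at or above 4-fold had a single exon. The share at or above 2-fold was 8.94% of genes with 1 exon and 1.46% of genes with 11 or more. By length it was 5.82% at genes of up to 500 bp, highest at 7.22% in the 8531 genes of the class that begins at 1000 bp, and 1.14% in the longest class, of 879 genes. Genes at or above 2-fold overlapped another gene in 31.8% of cases, against 28.5% overall.

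In the high genes, Pol II signal ran through the gene body and past its end. This was followed in 2844 protein-coding genes of 1000 bp or more whose nearest other gene is 1000 bp or more away, with each read placed at the centre of its rebuilt 200-bp fragment. The genes were grouped by their whole-gene ratio, which uses the same reads, so the height of each group is given by its making and only the shape is described. In the 227 genes at or above 2-fold, median log2 ratios were −0.97 in the 200 bp upstream, 0.17 in the first 200 bp, 1.86 in the middle, 1.37 in the last 200 bp and 1.46 in the first 300 bp past the end. Further on, from 300 to 1000 bp past the end, the median was 0.38, above that of 1000 to 500 bp upstream (−1.37). No correction for GC content was made along the gene. Over the genome, 500-bp windows flanking genes had a median GC content of 30.6%, against 38.4% in protein-coding genes. The part of GC content in the step between flank and gene body was not tested.

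The last 200 bp were higher than the first 200 bp in 193 of 216 such genes (89.4%), with a median difference of 1.31 in log2 ratio (1.12 to 1.502). The first 300 bp past the end were higher than the 200 bp upstream in 197 of 212. In the 1073 genes between 1-fold and 2-fold, the last 200 bp differed from the first 200 bp by a median of 0.02. They were higher in 50.6% of the 1034 genes compared. The first 300 bp past the end had a median of −0.40 in this group. In the 1544 genes below 1, the last 200 bp were lower than the first 200 bp by a median difference of −0.21. The pooled ratio of the high group was greatest 501 to 550 bp before the end (4.76) and showed no separate peak at the start, where it climbed to 4.53 at 700 to 749 bp. With most positions of the highest genes taken in the ChIP, the height of such a plateau is compressed too.

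**Figure D5:**
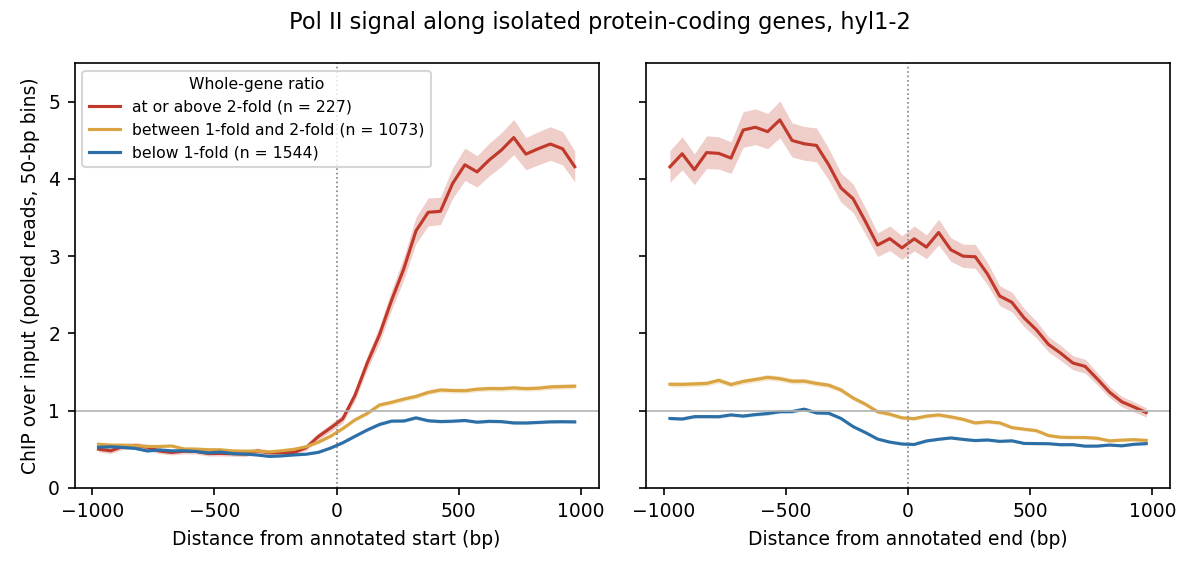
Pooled ChIP over input ratio in 50-bp bins around the annotated start (left) and end (right) of isolated protein-coding genes in hyl1-2, for 227 genes at or above 2-fold, 1073 genes between 1-fold and 2-fold and 1544 genes below 1-fold. Bands are 95% counting intervals, and no correction for GC content was made. In the first group the ratio reaches 4.76 before the end and is above 1 over most of the 1000 bp past it, whereas all groups lie near 0.5 upstream of the start.

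Short promoter motifs were counted in the 250 bp before and 50 bp after the start of 27062 protein-coding genes, on both strands, since the clock, light and ribosomal lists each have a well-known motif. AAATATCT, the evening element of clock-regulated promoters, was present in 5.68% of all promoters, 10.7% of those of genes at or above 2-fold and 14.6% at or above 4-fold. It was found in 5 of 8 evening genes and 1 of 9 morning genes. GATAAG, a core bound by GATA and MYB-related factors, was present in 14.7% of all promoters, 21.0% at or above 2-fold and 26.2% at or above 4-fold. A match is a string of letters and no evidence of binding.

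Among the evening genes at or above 2-fold, PRR5, PCL1 and TOC1 are shown with AAATATCT or its reverse complement AGATATTT in capitals in the 250 bases before the start on the coding strand (RefSeq, TAIR10.1). They are PRR5 (chr5:8358547-8358796, minus strand), PCL1 (chr3:17182792-17183041, plus strand) and TOC1 (chr5:24674713-24674962, plus strand).
PRR5: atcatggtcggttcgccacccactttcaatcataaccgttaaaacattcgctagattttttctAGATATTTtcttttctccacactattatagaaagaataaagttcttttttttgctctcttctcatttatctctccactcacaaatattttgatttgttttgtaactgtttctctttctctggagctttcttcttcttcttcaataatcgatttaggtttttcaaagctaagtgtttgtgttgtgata
PCL1: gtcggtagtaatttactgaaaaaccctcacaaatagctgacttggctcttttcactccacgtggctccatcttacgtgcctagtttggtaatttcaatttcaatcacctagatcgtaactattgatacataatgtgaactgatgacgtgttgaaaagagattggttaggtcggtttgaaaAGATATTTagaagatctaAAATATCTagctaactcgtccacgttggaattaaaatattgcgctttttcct
TOC1: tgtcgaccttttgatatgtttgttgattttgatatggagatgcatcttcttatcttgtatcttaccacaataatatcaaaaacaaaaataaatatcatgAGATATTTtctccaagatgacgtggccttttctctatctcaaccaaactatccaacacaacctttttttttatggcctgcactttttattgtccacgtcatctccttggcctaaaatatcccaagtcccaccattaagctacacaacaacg

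Light-regulated promoters often carry the G-box CACGTG beside GATAAG. The G-box was present in 7.75% of all promoters and in 18 of 49 photosystem and light-harvesting promoters, and also in 7 of the 9 morning clock promoters, whose genes were all below 1. GATAAG was present in 21 of the 49. Both are in capitals, on either strand, in the 150 bases before the start of LHCB6 (2.95-fold, chr1:5447881-5448030, minus strand) and PSBQ-2 (2.23-fold, chr4:2673244-2673393, minus strand). CACGTG also stands close to the start of the jasmonate repressor genes JAZ7 (6.11-fold, chr2:14572880-14573029, plus strand) and JAZ8 (4.05-fold, chr1:10596202-10596351, plus strand), 2 of 3 JAZ promoters that hold it.
LHCB6: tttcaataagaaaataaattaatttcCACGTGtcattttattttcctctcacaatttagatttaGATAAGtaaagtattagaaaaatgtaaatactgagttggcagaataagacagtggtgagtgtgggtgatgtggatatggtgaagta
PSBQ-2: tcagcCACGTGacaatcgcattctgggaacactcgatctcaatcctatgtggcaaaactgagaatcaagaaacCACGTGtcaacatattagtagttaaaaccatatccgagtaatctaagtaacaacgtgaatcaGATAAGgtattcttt
JAZ7: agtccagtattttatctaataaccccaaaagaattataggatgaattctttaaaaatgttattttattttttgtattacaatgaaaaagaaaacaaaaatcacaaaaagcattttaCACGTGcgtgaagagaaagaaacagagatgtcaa
JAZ8: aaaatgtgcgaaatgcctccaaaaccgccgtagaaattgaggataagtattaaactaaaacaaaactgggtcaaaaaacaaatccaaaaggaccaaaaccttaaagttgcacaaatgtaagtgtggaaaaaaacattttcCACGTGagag

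Ribosomal protein promoters held other motifs at a high share without a high ratio. AAACCCTA, the telobox, was present in 112 of 289 of these promoters (38.8%) and 6.25% of all promoters, and TGGGCC in 161 of 289 (55.7%) and 15.6% of all. Both were less frequent at genes at or above 2-fold, at 2.70% and 9.56%. The 150 bases before the start of AT4G27090 (chr4:13595253-13595402, minus strand; 564 reads in the ChIP and 327 in the input, 1.26-fold) and AT5G15200 (chr5:4936430-4936579, minus strand; 539 and 318, 1.24-fold) show both in capitals on either strand.
AT4G27090: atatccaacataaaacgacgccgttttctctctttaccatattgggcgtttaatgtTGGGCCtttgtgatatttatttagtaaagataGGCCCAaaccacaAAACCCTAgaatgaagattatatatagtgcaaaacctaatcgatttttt
AT5G15200: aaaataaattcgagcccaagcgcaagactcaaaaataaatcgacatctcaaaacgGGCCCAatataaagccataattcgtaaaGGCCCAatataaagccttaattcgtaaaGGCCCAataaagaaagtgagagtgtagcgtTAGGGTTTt

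TATAAA, the core of the TATA box, was looked for on the coding strand, with the whole motif within the bases 50 to 16 bp before the start. It was present in 8.77% of all promoters, 9.56% of those at or above 2-fold, 12.7% at or above 4-fold and 18.9% at or below 0.5-fold. It was present in 13 of 47 histone promoters (27.7%), whose genes had a median of 0.43.

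Along the chromosomes, pericentromeric regions had a higher ratio than arms when reads of mapping quality 0 were left out. Of 100-kb bins where pseudogenes outnumber protein-coding genes, taken as pericentromeric, 177 had a median of 0.37 (0.29 to 0.44) and 9 were at or above 2-fold, and 1014 arm bins had a median of −0.07 (−0.08 to −0.06) and 1 was at or above 2-fold. With all reads the medians were 0.10 and −0.06. Mapping quality 0 was given to 30.6% of the ChIP reads and 43.0% of the input reads in the pericentromeric bins, and to 2.16% and 3.53% in the arms. The protein-coding genes within the pericentromeric bins had a median of 0.17 over 828 genes, and those of the arms 0.01 over 26235.

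The bin at or above 2-fold that was counted with the arms was chr2:3400001-3500000. It lies within the span of the pericentromeric bins of chromosome 2 (1200001 to 6600000), but holds 36 protein-coding genes and 15 pseudogenes. It had 5164 reads in the ChIP and 1586 in the input (2.38-fold), and the bin before it was at 1.99-fold. There 93.2% of the ChIP reads and 95.01% of the input reads had mapping quality 0. This region of chromosome 2 is known to hold a copy of the mitochondrial genome, and reads aligned to the mitochondrial sequence itself were 1.015% of the ChIP library and 0.6525% of the input library. Reads of that organelle and of its nuclear copy cannot be told apart.

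Outside annotated genes the ratio was low, where GC content was lower too. Intergenic windows of 500 bp, each 1000 bp or more away from every gene, had a median of −0.98 (−0.9998 to −0.97), windows flanking genes −0.75 and windows in protein-coding genes 0.01. The median GC content was 29.6% in the intergenic windows and 38.4% in those in protein-coding genes. At 40 to 42% GC the order turned, with a median of 0.50 over 262 intergenic windows and 0.13 over 5195 protein-coding genes measured whole. Both leave out reads of mapping quality 0, whose part in this turn was not tested. Of 16271 intergenic windows, 2.97% were at or above 2-fold. The highest, chr4:1698501-1699000, had 120 reads in the ChIP and 20 in the input (4.38-fold, 2.71 to 7.43) and lies 1349 bp from the pseudogene AT4G03795. The second, chr5:17741001-17741500, had 125 and 21 reads (4.35-fold) and lies 1052 bp from AT5G44080, the only protein-coding gene nearest to one of the 5 highest. Mapping quality 0 was given to 27.3% of the ChIP reads in the highest window and 7.41% in the second.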

How the data were processed

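Per the methods, trimming, alignment with Bowtie to the TAIR10 genome, removal of duplicates with SAMtools and conversion to intervals with bedtools were done by the authors with tools whose versions are not given in the sources used here. The deposited intervals are 200 bp (ChIP) and 175 bp (input), made of aligned reads of 75 and 50 bp with 125 bp added toward higher coordinates, and the 2 libraries came from different flow cells. The paper gives trimming to 50 bp and extension to 200 bp, from which the 75-bp ChIP reads and the 175-bp input intervals differ. The score column deposited by the authors is the mapping quality. Reads with a score above 0 were counted where the interval overlapped a locus of the RefSeq annotation of TAIR10.1, and divided by the library total of such reads (RPM). Loci with fewer than 20 reads in either library were left out. Genes were named by rule: the 20 highest and 10 lowest protein-coding genes with at least 100 input reads, the 3 highest loci with at least 50 input reads of each non-coding class, the extremes of each list, all members of lists of 12 or fewer, HYL1, the MIR genes the study names and the 5 highest intergenic windows. Genes named beside their neighbours were chosen after their values were seen. The members and lists were chosen with earlier results of these data known. Scripts (Python 3.11.15, NumPy 2.4.6, pandas 2.3.3, SciPy 1.17.1, matplotlib 3.10.9) were tested on simulated data. The alternatives covered mapping quality, scaling, the read minimum, read placement, GC content, occupied positions, thresholds and overlapping genes.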

Additional observations from a re-analysis of the deposited data

Results flagged for a closer look

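Mitochondrial reads, which enter no gene comparison, were 307958 in the ChIP (1.015% of the library) and 148550 in the input (0.6525%), a ratio of 1.556 (1.546 to 1.566), and 1.49 with reads of mapping quality above 0. They were singled out as a signal outside the main measurement that was above the input. Chloroplast reads went the other way, at 0.8703% of the ChIP and 1.291% of the input (0.674-fold). Pol II does not transcribe either genome, and what sets these shares was not tested.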

How the results depend on the processing

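With 1 library on each side, no library could be left out. No paired analysis was possible because there is only 1 ChIP and 1 input library. Scaling that put the median intergenic window at a ratio of 1 raised the median of protein-coding genes to 0.99, a shift of nearly 2-fold in all values. It gave 13321 protein-coding genes and 3662 pseudogenes at or above 2-fold and 4 protein-coding genes at or below 0.5-fold, and medians of 1.49 for pseudogenes, 0.94 for MIR loci, 0.88 for long non-coding RNA loci, 0.91 for tRNA genes, 1.24 for snRNA and snoRNA genes, 1.73 for photosystem, 0.95 for ribosomal protein, 0.78 for morning clock, 1.75 for evening clock, 3.05 for JAZ and 0.32 for defensin-like genes. The order of the lists is the same under a scaling. The GC correction lowered the median of protein-coding genes to −0.30 and gave 260 of them at or below 0.5-fold, 391 pseudogenes at or above 2-fold, and medians of 0.15 for pseudogenes, −0.96 for tRNA genes, 0.25 for photosystem, −0.31 for ribosomal protein, −0.53 for morning clock, 0.27 for evening clock, 2.38 for JAZ and −0.038 for defensin-like genes. It turned LCR33 to 0.23 on the log2 scale. A threshold of 1.5 gave 2993 high and 920 low protein-coding genes, a threshold of 3 gave 697 and 24, and intervals wholly past the threshold 36 low ones. A minimum of 100 reads gave 60 low protein-coding genes, 522 high pseudogenes and a median of 1.0999 over the 7 snRNA and snoRNA genes left. Without overlapping genes the evening clock median was 1.098, and with the correction for occupied positions the JAZ median was 2.45. With all reads, 41 pseudogenes were high and the pericentromeric median was 0.10, and with pseudogenes at least 2 to 1 it was 0.49. For these values the cause was not tested, beyond the fewer genes that the stricter minimum and the overlap rule leave. Of 300 named genes, the GC correction moved 268, the correction for occupied positions 82 and the use of all reads 14 past their counting interval. The other alternatives, including the placement of reads at fragment centres or interval midpoints, kept the counts of high and low protein-coding genes and of high pseudogenes within 1.5 times. Smaller counts moved more. With fragment centres, 0 of 10 tRNA, 9 of 29 snRNA, 9 of 120 snoRNA and 13 of 206 MIR loci were high, since fewer short loci reached the read minimum, and 5 AGAMOUS-like, 3 SAUR and 5 expansin and XTH genes. With the GC correction, 32 MIR loci, 8 cytochrome P450, 5 polyubiquitin, actin and tubulin and 3 histone genes were high. At the read minimum of 20, a ratio has a wide counting interval, and short loci are limited most.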
